A study of Mus musculus with 6 samples.

Results

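The receptors for interleukin-12, interleukin-18 and interferon gamma, which steer effector CD8 T cells, were followed through the 8 genes Il12rb1, Il12rb2, Il18r1, Il18rap, Ifngr1, Ifngr2, Stat4 and Jak2. Members were taken as probes whose only annotated gene symbol is 1 of these names, and all 8 had exactly 1 such probe, so 8 of the 19929 genes with a single-symbol probe are described. CD8 T cells carrying the AI4 antigen receptor, a transgenic receptor against a beta cell antigen, had been sorted from pancreas with an antibody to CD8 and a peptide tetramer. AI4 mice, which had developed type 1 diabetes, gave 3 arrays. Rip-B7xAI4 mice, which were resistant, gave the other 3. Both groups carry the AI4 receptor on a C57BL/6.H2g7/g7 background, and the Rip-B7x mice add a transgene that drives the inhibitory ligand B7x from the rat insulin promoter, which is active in beta cells rather than in T cells. The replicates are labelled as biological, each is RNA from pooled pancreata, and the sources used here give neither ages nor numbers of mice. An effect of the transgene and an effect of being resistant to diabetes cannot be told apart in these groups.

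Interleukin-12 binds a receptor of the chains Il12rb1 and Il12rb2. The Il12rb2 chain brings in the kinase Jak2 and the transcription factor Stat4, and Il12rb1 brings in Tyk2 and is shared with the interleukin-23 receptor. Interleukin-18 binds Il18r1, and Il18rap must join before the complex signals through Myd88. Interleukin-12 and interleukin-18 together are strong inducers of interferon gamma in T cells and natural killer cells. Interferon gamma in turn binds Ifngr1, which holds Jak1, and needs Ifngr2, which holds Jak2. In T cells Ifngr2 is known as the limiting chain for the response to interferon gamma.

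The DNA just upstream of the transcription start is shown for the 4 members whose 2 groups of arrays did not overlap. Sequences are those of RefSeq (GRCm38.p6), 250 bases ending at the base before the start, written 5′ to 3′ on the strand of the gene. Capitals mark 3 motifs searched on both strands: the T-box core GTGTGA, bound by factors such as T-bet, the interferon gamma activated site TTCNNNGAA, bound by STAT proteins, and the GC box GGGCGG, bound by Sp1. Overlapping matches were counted separately. The window of Il12rb2 is chr6:67376189-67376438 on the minus strand. The window of Il18r1 is chr1:40465302-40465551, that of Il18rap is chr1:40515112-40515361 and that of Ifngr2 is chr16:91546809-91547058, all on the plus strand.
Il12rb2: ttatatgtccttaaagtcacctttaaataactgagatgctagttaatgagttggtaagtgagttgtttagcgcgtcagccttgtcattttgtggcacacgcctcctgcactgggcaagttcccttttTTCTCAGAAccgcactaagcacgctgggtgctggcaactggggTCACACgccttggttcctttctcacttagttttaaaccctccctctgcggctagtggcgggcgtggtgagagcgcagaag
Il18r1: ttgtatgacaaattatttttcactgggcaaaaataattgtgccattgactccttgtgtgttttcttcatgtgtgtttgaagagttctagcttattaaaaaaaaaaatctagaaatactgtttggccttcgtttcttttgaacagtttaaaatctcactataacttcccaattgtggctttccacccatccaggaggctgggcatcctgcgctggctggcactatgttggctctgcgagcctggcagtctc
Il18rap: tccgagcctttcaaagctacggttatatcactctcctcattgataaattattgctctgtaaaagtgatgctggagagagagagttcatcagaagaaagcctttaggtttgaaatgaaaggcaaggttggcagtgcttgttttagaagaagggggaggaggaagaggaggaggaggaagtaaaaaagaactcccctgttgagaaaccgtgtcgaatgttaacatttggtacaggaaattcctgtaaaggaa
Ifngr2: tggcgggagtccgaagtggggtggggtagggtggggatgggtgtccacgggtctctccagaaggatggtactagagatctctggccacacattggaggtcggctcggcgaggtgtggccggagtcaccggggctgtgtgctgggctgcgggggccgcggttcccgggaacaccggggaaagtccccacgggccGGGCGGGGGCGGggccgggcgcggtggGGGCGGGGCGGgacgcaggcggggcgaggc

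Il12rb2 had 1 T-box core and 1 interferon gamma activated site in this window. Over all 32851 upstream windows of this length in the table, 12.3% hold the T-box core, 7.02% the interferon gamma activated site and 32.7% the GC box. Ifngr2, the only 1 of the 4 with lower values in Rip-B7xAI4, had 4 GC box matches, 25 CpG pairs and 74.0% G and C, more than 95.1% of all windows. Il18r1 and Il18rap had none of the 3 motifs at the starts shown, with 40.8% and 42.0% G and C against a median of 52.4%. Il18r1 has 3 listed starts, and the third, whose window is chr1:40465756-40466005, holds 2 interferon gamma activated sites. Il18r1 and Il18rap are next to each other among the coding genes of chromosome 1. These matches describe the letters of each window and say nothing on whether a factor binds there. Ifngr1 and Jak2 had 2 GC box matches each, and neither start of Stat4 held any of the 3 motifs. Il12rb1 is not in the table.

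Expression is given as the deposited value per probe, read here as log2, so that a difference of 1 is a doubling. Values of a group are given in the order of replicates 1, 2 and 3. Levels of different genes are not compared, since each probe has its own brightness. Array medians lay between 5.94 and 6.10, and background was not measured. Markers of T cells were bright on all arrays, with the mean of 9 measured T cell genes between 10.02 and 10.62. Cd8a lay between 9.21 and 10.89, and Cd4 between 5.47 and 6.24, near the array medians. Of the 9 T cell genes 0 passed by limma. Cd8b1 differed by -1.001 ± 0.39 (SE) and Cd8a by -0.69 ± 0.35 (SE), Rip-B7xAI4 minus AI4, with overlapping groups. Cd3e differed by 0.88 ± 0.42 (SE), with all Rip-B7xAI4 arrays higher. It stood at 9.11, 10.50 and 10.59 in AI4, and its lowest Rip-B7xAI4 value was 10.65. Cd3d and Cd3g were also lowest on AI4 replicate 1, at 10.19 and 10.41. The mean of 19 measured myeloid genes was 5.95 to 6.41 in AI4, but 8.72, 6.14 and 8.70 in Rip-B7xAI4 replicates 1, 2 and 3. Of the 18 tested, 3 (Itgax, Cd68 and Fcer1g) were higher on every Rip-B7xAI4 array than on any AI4 array, replicate 2 included. Such a separation held for 5.99% of all genes tested. The mean of 6 measured natural killer cell genes was 5.07 to 5.18 in AI4 and 5.83, 5.72 and 6.29 in Rip-B7xAI4. Both lists include Fcer1g, and the second includes Eomes, which effector CD8 T cells also express. Of its other 4 genes, Ncr1, Klrb1c, Klre1 and Klra8, all were too dim to be tested. Even so, Klrb1c and Klre1 were higher on every Rip-B7xAI4 array than on any AI4 array. Klrb1c had a mean of 4.65 in AI4 and 5.65 in Rip-B7xAI4, and Klre1 of 3.88 and 4.41. Ncr1 and Klra8 overlapped, with only Rip-B7xAI4 replicate 3 above all AI4 arrays. B cell, beta cell and acinar gene means stayed between 5.06 and 6.47 on all arrays. The B cell mean was highest on the arrays with high myeloid genes, Rip-B7xAI4 replicates 1 (6.44) and 3 (6.47). It was lowest on Rip-B7xAI4 replicate 2 (5.54), while the AI4 arrays spanned 5.59 to 6.05. The B cell gene Ms4a1 reached 7.14 and 7.32 on replicates 1 and 3, but Cd79a was highest on AI4 replicate 3, at 7.46. Of the 6 tested B cell genes 0 separated the groups. The part of B cell RNA in the members' values was not tested.

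RNA for both chains of the interleukin-18 receptor (Il18r1 and Il18rap) and for the inducible chain of the interleukin-12 receptor (Il12rb2) stood higher on every Rip-B7xAI4 array than on any AI4 array. RNA for the partner chain of the interferon gamma receptor (Ifngr2) stood lower on every one of them. Il12rb1, Ifngr1, Stat4 and Jak2 did not separate the groups. None of the 8 members passed an adjusted p of 0.05 by limma, the limit used here, at which 0.00717% of the 13950 genes tested were called. Without adjustment, 3 higher members had a p under 0.05 by limma, against 5.56% of all genes tested, and 1 lower member, against 3.17%. The groups did not overlap for 4 of 8 members. In 3 of these Rip-B7xAI4 was the higher group, which held for 5.99% of all genes tested, and in 1 it was the lower group, which held for 11.9%. The members were chosen with earlier results in view, so these shares describe them and are no test. Over the 8 members the median difference, Rip-B7xAI4 minus AI4, was 0.57 on the log2 scale, with a range of -1.35 to 1.40, while the median over all genes tested was -0.097. The median of the 8 members was 0.22 without AI4 replicate 1 and 0.97 without AI4 replicate 3. After quantile normalization it was 0.38, while the median over all genes tested was -0.096.

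**Figure D1:**
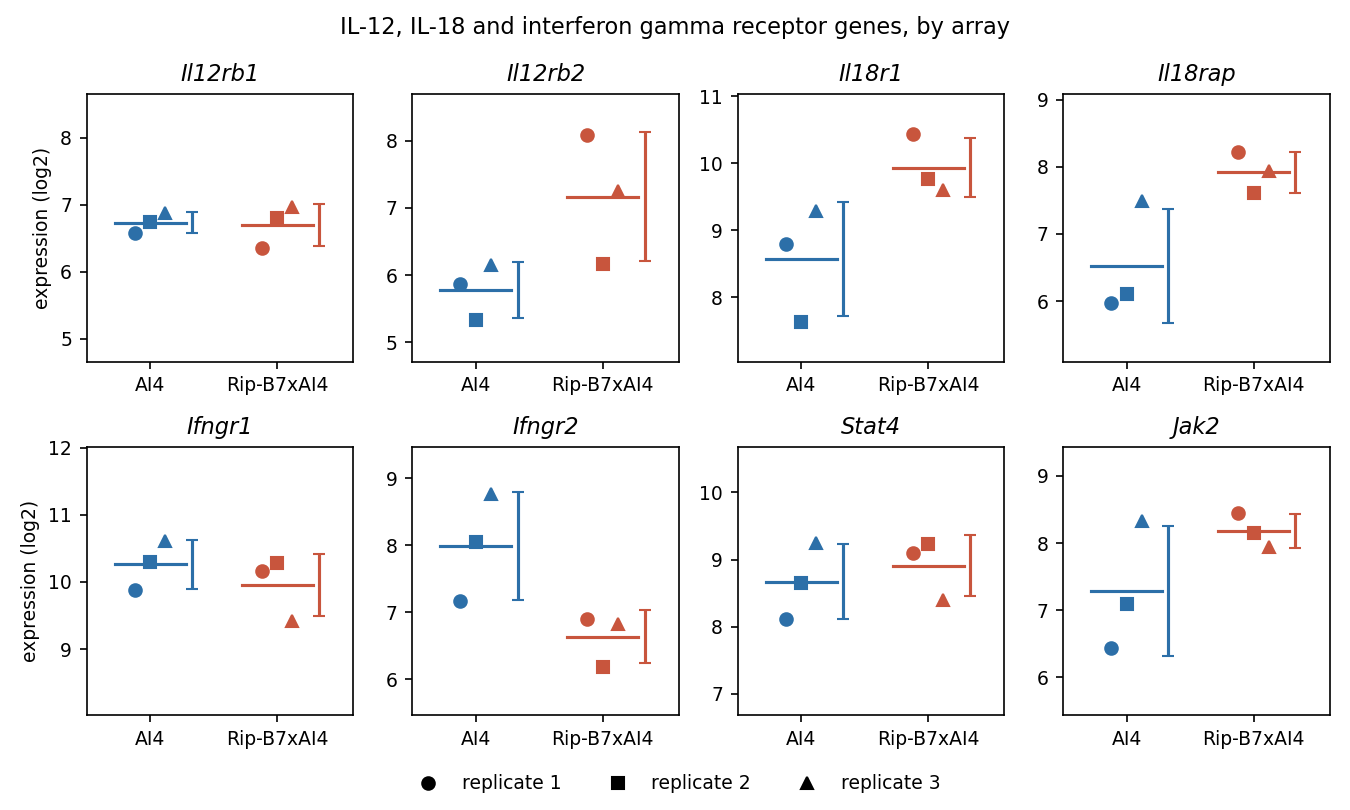
Expression (log2) of each gene on the 6 arrays, with AI4 in blue and Rip-B7xAI4 in red. Marker shape gives the replicate number, horizontal lines are group means and bars are 1 SD over 3 arrays; every panel spans 4 log2 units. The groups separate for Il12rb2, Il18r1, Il18rap and Ifngr2, and AI4 replicate 3 is the highest AI4 array in all 8 panels.

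Il12rb2 is the chain whose RNA appears when T cells are activated toward interferon gamma production. It stood at 5.86, 5.32 and 6.15 in AI4 replicates 1, 2 and 3 and at 8.09, 6.16 and 7.26 in Rip-B7xAI4 replicates 1, 2 and 3. The Rip-B7xAI4 arrays were all higher, but replicate 2 cleared the highest AI4 array by only 0.011, while replicate 1 was far above. The AI4 mean was 5.78 ± 0.42 (SD, n = 3) and the Rip-B7xAI4 mean 7.17 ± 0.97 (SD, n = 3). The difference was 1.39 ± 0.49 (SE) on the log2 scale, with a 95% interval of 0.22 to 2.56 and a limma adjusted p = 0.530. The values 8.09 and 7.26 belong to the 2 arrays on which myeloid genes were also high. Without Rip-B7xAI4 replicate 1 the difference was 0.93 ± 0.41 (SE), and without Rip-B7xAI4 replicates 1 and 3 it was 0.38 ± 0.40 (SE). The part of myeloid or natural killer cell RNA in the Il12rb2 value was not tested. In sorted bulk RNA a change in the share of expressing cells and a change in RNA per cell cannot be told apart, for this gene and for the others.

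Il12rb1, the constant chain of the same receptor, stood at 6.58, 6.74 and 6.88 on the AI4 arrays and at 6.35, 6.80 and 6.96 on the Rip-B7xAI4 arrays. These ranges lie over each other, with means of 6.73 ± 0.15 (SD, n = 3) and 6.70 ± 0.31 (SD, n = 3). The difference of -0.029 had a 95% interval of -0.54 to 0.48 and its sign turned under some alternatives, among them median centring (0.038). Of the 8 members, Il12rb1 had the narrowest interval.

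Stat4, the transcription factor that interleukin-12 activates, stood at 8.12, 8.65 and 9.24 on the AI4 arrays and at 9.10, 9.24 and 8.40 on the Rip-B7xAI4 arrays. The groups overlapped across most of their range. Its difference was 0.24 ± 0.35 (SE), with a 95% interval of -0.60 to 1.08 and a limma adjusted p = 0.761. After quantile normalization it was -0.0090, so no direction is given for Stat4.

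Jak2 serves both the interleukin-12 receptor and the interferon gamma receptor. It stood at 6.43, 7.10 and 8.33 on the AI4 arrays and at 8.44, 8.15 and 7.94 on the Rip-B7xAI4 arrays. The spread was unlike, with a range of 1.90 among the AI4 arrays and 0.51 among the Rip-B7xAI4 arrays. AI4 replicate 3 lay above Rip-B7xAI4 replicates 2 and 3, and the other AI4 arrays lay below all of them. The difference was 0.89 ± 0.47 (SE), with a 95% interval of -0.22 to 2.00 and a limma adjusted p = 0.582. Without AI4 replicate 3 the difference was 1.41 and the groups no longer overlapped, and without AI4 replicate 1 it was 0.46.

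Il18r1, the chain that binds interleukin-18, stood at 8.80, 7.64 and 9.30 on the AI4 arrays and at 10.44, 9.76 and 9.61 on the Rip-B7xAI4 arrays. The groups were 0.31 apart at their nearest arrays, the widest such gap among the 4 members that separated. Means were 8.58 ± 0.85 (SD, n = 3) and 9.93 ± 0.44 (SD, n = 3). The difference was 1.36 ± 0.45 (SE), with a 95% interval of 0.28 to 2.43 and a limma adjusted p = 0.512. Without AI4 replicate 2, the lowest array, it was 0.89. It was 1.18 ± 0.69 (SE) without Rip-B7xAI4 replicates 1 and 3. The part of myeloid or natural killer cell RNA in the Il18r1 value was not tested.

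Il18rap, the chain that lets the interleukin-18 complex signal, stood at 5.96, 6.10 and 7.49 on the AI4 arrays and at 8.22, 7.61 and 7.93 on the Rip-B7xAI4 arrays. The Rip-B7xAI4 arrays were close together, and AI4 replicate 3 came within 0.12 of them while the other AI4 arrays were far lower. Means were 6.52 ± 0.85 (SD, n = 3) and 7.92 ± 0.31 (SD, n = 3). The difference was 1.40 ± 0.43 (SE), with a 95% interval of 0.39 to 2.42 and a limma adjusted p = 0.486. Il18rap had the smallest p of the 8 members and was number 404 of the 13950 genes tested in order of p. Leaving out AI4 replicate 3 gave 1.89 ± 0.24 (SE), with a limma adjusted p = 0.208, against 0.164 to 0.953 over all alternatives. It was 1.09 ± 0.69 (SE) without Rip-B7xAI4 replicates 1 and 3. For Il18rap too, the part of myeloid or natural killer cell RNA in the value was not tested.

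Ifngr1, the chain that binds interferon gamma, stood at 9.89, 10.29 and 10.61 on the AI4 arrays and at 10.16, 10.29 and 9.42 on the Rip-B7xAI4 arrays. Rip-B7xAI4 replicates 1 and 2 lay inside the AI4 range and replicate 3 below it. Its difference was -0.31 ± 0.30 (SE), with a 95% interval of -1.03 to 0.41 and a limma adjusted p = 0.671. Without Rip-B7xAI4 replicate 3 it was -0.042.

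Ifngr2, the partner chain, was the only member with all Rip-B7xAI4 arrays below all AI4 arrays. It stood at 7.16, 8.05 and 8.76 on the AI4 arrays and at 6.91, 6.18 and 6.83 on the Rip-B7xAI4 arrays. AI4 replicate 1 was the lowest of its group and lay 0.26 above the highest Rip-B7xAI4 array. Means were 7.99 ± 0.80 (SD, n = 3) and 6.64 ± 0.40 (SD, n = 3). The difference was -1.35 ± 0.42 (SE), with a 95% interval of -2.36 to -0.34 and a limma adjusted p = 0.496. Without Rip-B7xAI4 replicates 1 and 3, the arrays with high myeloid genes, the difference was -1.81 ± 0.66 (SE), where the lone remaining array is assumed to vary like the others. The part of myeloid RNA in the Ifngr2 value was not tested.

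**Figure D2:**
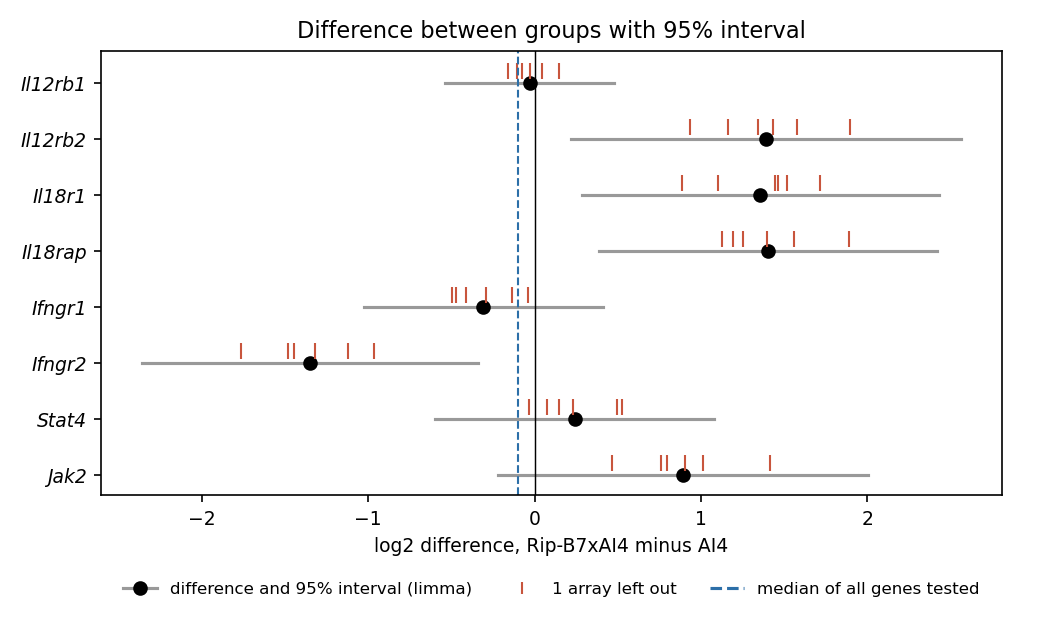
Log2 difference, Rip-B7xAI4 minus AI4, for the 8 genes, with 95% intervals from limma in grey. Red ticks give the difference with each of the 6 arrays left out in turn, and the dashed line marks the median of all genes tested, -0.097. The intervals of Il12rb2, Il18r1 and Il18rap lie above 0 and that of Ifngr2 below it; these intervals are not adjusted for the number of genes.

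Whether the 2 chains of a receptor changed alike was read from their difference on each array. The level of such a difference has no meaning of its own, because each probe has its own brightness, but its change between groups does. The smallest p that an exact two-sided permutation test can give with 3 against 3 arrays is 0.1, so this test cannot reach 0.05, and p was adjusted over the 3 pairs. Il12rb2 minus Il12rb1 was -0.71, -1.42 and -0.73 on the AI4 arrays and 1.73, -0.64 and 0.30 on the Rip-B7xAI4 arrays. All 3 Rip-B7xAI4 arrays were higher, by 1.42 on average (exact permutation p = 0.1, adjusted 0.3), and by 0.32 without Rip-B7xAI4 replicates 1 and 3.

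Ifngr2 minus Ifngr1 was -2.72, -2.25 and -1.85 on the AI4 arrays and -3.25, -4.11 and -2.59 on the Rip-B7xAI4 arrays. Here the groups overlapped, because Rip-B7xAI4 replicate 3 lay above AI4 replicate 1. Their means differed by -1.04 (exact permutation p = 0.2, adjusted 0.3), by -0.65 without Rip-B7xAI4 replicate 2 and by -1.83 without Rip-B7xAI4 replicates 1 and 3. Il18rap minus Il18r1 was -2.83, -1.54 and -1.80 on the AI4 arrays and -2.22, -2.15 and -1.67 on the Rip-B7xAI4 arrays. The groups were mixed, with a mean difference of 0.045 (exact permutation p = 0.9, adjusted 0.9), although the AI4 arrays alone spread by 0.68 (SD, n = 3).

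**Figure D3:**
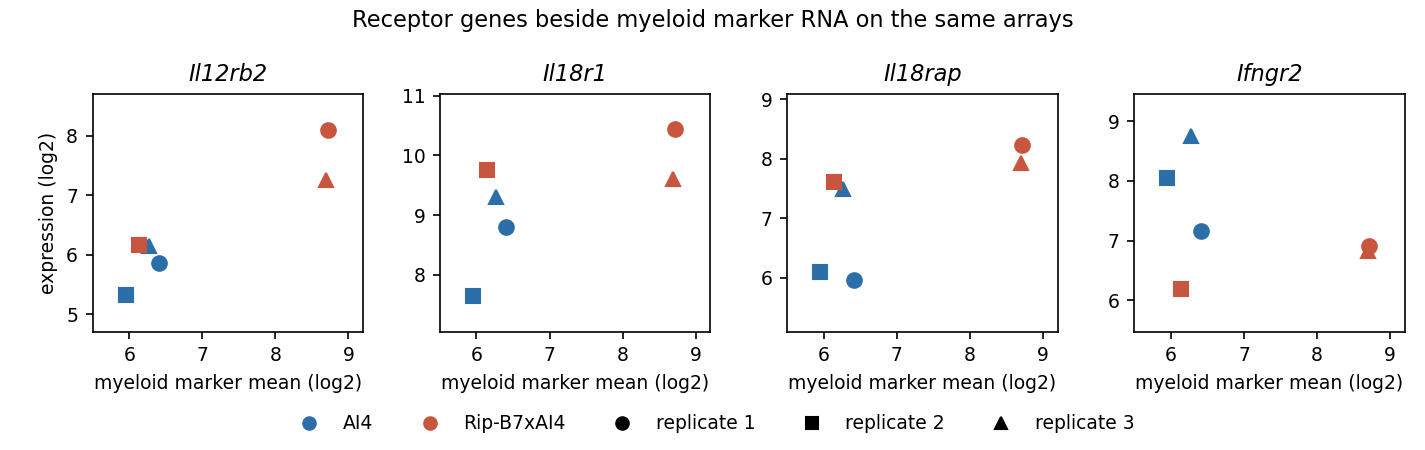
Expression (log2) of the 4 genes whose groups did not overlap, plotted against the mean of 19 myeloid genes (log2) on the same array. AI4 is blue, Rip-B7xAI4 is red and the marker shape gives the replicate. Il12rb2 was higher on the 2 arrays with myeloid means of 8.72 and 8.70 than on the other 4, while Rip-B7xAI4 replicate 2, at a myeloid mean of 6.14, has the lowest Ifngr2 value, 6.18.

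The genes whose profiles over the 6 arrays came nearest to each member were found by the root mean square difference of log2 values after centring each gene. Nearest to Il12rb2 were Fgl2, at 0.16, and the lysozyme gene Lyz1, at 0.23, and Lyz1 is on the myeloid list. Fgl2, which encodes a secreted fibrinogen-like protein made by macrophages and some T cells, stood at 4.999, 4.47 and 4.94 on the AI4 arrays and at 7.26, 5.37 and 6.53 on the Rip-B7xAI4 arrays. Both are high on the same Rip-B7xAI4 arrays as Il12rb2. Nearest to Il18rap were Vps35 (0.14), a subunit of the retromer, and Zc3h13 (0.15), and nearest to Il18r1 were Nsrp1 (0.14) and Ube2g2 (0.21). Neither pair belongs to the myeloid list. Few of the genes tested are on that list, so a myeloid part in the Il18r1 and Il18rap values was not tested by this comparison. Nearest to Ifngr2 were Ldlrad4 (0.16) and Vamp1 (0.30), which were also lower on all Rip-B7xAI4 arrays.

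Of the members whose groups overlapped, Jak2 lay next to Ccdc186 (0.071) and Brd8 (0.14), and Stat4 next to Sdha (0.091) and Cdk17 (0.10). Ifngr1 lay next to Fam117b (0.065) and Smim27 (0.11), and Il12rb1 next to Pdcd2l (0.039) and Pbld2 (0.045). Among the members themselves, the nearest pair was Ifngr1 and Stat4 at 0.30, followed by Il18rap and Jak2 at 0.34 and by Il18r1 and Il18rap at 0.43. The farthest was Il18r1 and Ifngr2 at 1.499. Likeness over 6 arrays of 2 groups is a description of these arrays.

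The other genes of the 3 pathways were taken from 7 lists, and 0 of their 74 tested entries passed the limit by limma. At an unadjusted limma p under 0.05, 9 entries were higher and 1 was lower, while 5.56% of all genes tested were higher and 3.17% lower. A gene on 2 lists is counted on each. Over all genes tested, 5437 differences were positive and 8513 negative, to be set beside the sign counts of each list. The groups did not overlap for 5.99% of all genes tested with Rip-B7xAI4 higher, and for 11.9% with Rip-B7xAI4 lower. Of the 8 tested ligand and ligand maturation genes, 4 had a positive and 4 a negative difference, with a median of -0.052. Ifng itself stood at 6.76, 5.38 and 5.14 on the AI4 arrays and at 9.47, 9.73 and 8.49 on the Rip-B7xAI4 arrays, so that the groups were far apart. They differed by 3.47 ± 0.51 (SE), and limma gave an adjusted p = 0.157. Casp1, the protease that matures interleukin-18, stood at 6.75, 4.84 and 5.82 on the AI4 arrays and at 8.67, 8.35 and 8.15 on the Rip-B7xAI4 arrays. All of its Rip-B7xAI4 arrays were higher, with a difference of 2.59 ± 0.47 (SE) and a limma adjusted p = 0.206.

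The genes of the interleukin-12 and interleukin-23 chains had small differences. Il12a and Il23a differed by -0.28 ± 0.17 (SE) and -0.36 ± 0.17 (SE), with all Rip-B7xAI4 arrays below all AI4 arrays for both. Such a separation held for 11.9% of all genes tested. Both were dim, with means over all arrays of 5.65 and 5.49, near the limit of 5.47 for being tested. Il12b differed by 0.026 ± 0.23 (SE). Il18 was too dim to be tested, at 3.75 to 4.47 on 5 arrays and at 6.31 on Rip-B7xAI4 replicate 3. That array is 1 of the 2 with high myeloid genes.

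Of the kinases and STATs listed beside the members, Tyk2, Jak1 and Stat3 could be tested. Tyk2, the kinase of Il12rb1, differed by 0.22 ± 0.16 (SE) and Jak1, the kinase of Ifngr1, by -0.14 ± 0.27 (SE). Stat3 differed by 0.78 ± 0.50 (SE). Jak3 had no probe with a single symbol and is not described.

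Below the interleukin-18 receptor, 7 of 11 tested genes had a positive difference, with a median of 0.29. The adaptor Myd88 stood at 5.78, 5.83 and 7.80 on the AI4 arrays and at 7.18, 7.47 and 8.64 on the Rip-B7xAI4 arrays. As with Il18rap and Jak2, AI4 replicate 3 was far above the other AI4 arrays, and the groups overlapped, with a difference of 1.29 ± 0.63 (SE). Gadd45b, a stress protein that interleukin-18 induces in T cells, differed by 0.56 ± 0.22 (SE), Irak2 by 0.37 ± 0.17 (SE) and the kinase Mapk14 by 0.52 ± 0.30 (SE). The 4 with a negative difference were Gadd45g (-0.61), Map3k7 (-0.33), Tab1 (-0.28) and Irak1 (-0.10). Gadd45b and Irak2 were higher on every Rip-B7xAI4 array than on any AI4 array, and Tab1 was lower on every one.

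Inhibitors of these receptors had a median difference of 0.019 over 12 tested genes, and 0 of them separated the groups. Ptpn2, a phosphatase that acts on JAK and STAT proteins, differed by 1.37 ± 0.60 (SE), with AI4 values from 4.58 to 6.85, and Ptpn11 by 0.62 ± 0.31 (SE). Sigirr, an inhibitory member of the interleukin-1 receptor family, differed by -0.33 ± 0.21 (SE), and Socs1, the feedback inhibitor of interferon gamma signalling, by -0.23 ± 0.22 (SE).

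Among 9 transcription factors 6 had a positive difference, with a median of 0.033. Tbx21, which encodes T-bet, stood at 6.70, 6.79 and 6.67 on the AI4 arrays and at 7.22, 8.36 and 7.50 on the Rip-B7xAI4 arrays. The AI4 arrays were nearly alike and all Rip-B7xAI4 arrays lay above them, highest on replicate 2, where the mean of the myeloid genes was low. Its difference was 0.97 ± 0.30 (SE), with a limma adjusted p = 0.493. Irf8 differed by 1.05 ± 0.36 (SE), Eomes by 1.04 ± 0.49 (SE) and Irf1 by -1.28 ± 0.78 (SE).

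Genes that interferon gamma induces had a positive difference in 11 of 15 tested genes, with a median of 0.22. The 4 with a negative difference were Irf1 (-1.28), Cd274 (-0.25), Socs1 (-0.23) and Psmb10 (-0.050). The immunoproteasome gene Psmb9 stood at 10.54, 10.27 and 10.15 on the AI4 arrays and at 11.16, 11.35 and 11.40 on the Rip-B7xAI4 arrays. Its groups were well apart, with a difference of 0.98 ± 0.18 (SE) and a limma adjusted p = 0.206. Tap2, a peptide transporter chain, differed by 0.52 ± 0.17 (SE), Psmb8 by 0.38 ± 0.18 (SE) and Iigp1, an interferon-induced GTPase, by 1.12 ± 0.47 (SE). Iigp1 stood at 7.21 and 7.29 on Rip-B7xAI4 replicates 1 and 3, where myeloid genes were high, and at 5.54 on replicate 2, within the AI4 values.

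Receptor chains related to the members had a median difference of -0.19 over 16 tested genes, with 6 positive and 10 negative. Il27ra, the receptor of interleukin-27, differed by -0.56 ± 0.19 (SE) and was below all AI4 values on every Rip-B7xAI4 array. Il10ra and Il2rb were above them on every Rip-B7xAI4 array, with differences of 0.79 ± 0.28 (SE) and 1.08 ± 0.34 (SE). Il7r, the interleukin-7 receptor chain of resting and memory cells, differed by -1.12 ± 0.48 (SE) and overlapped.

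**Figure D4:**
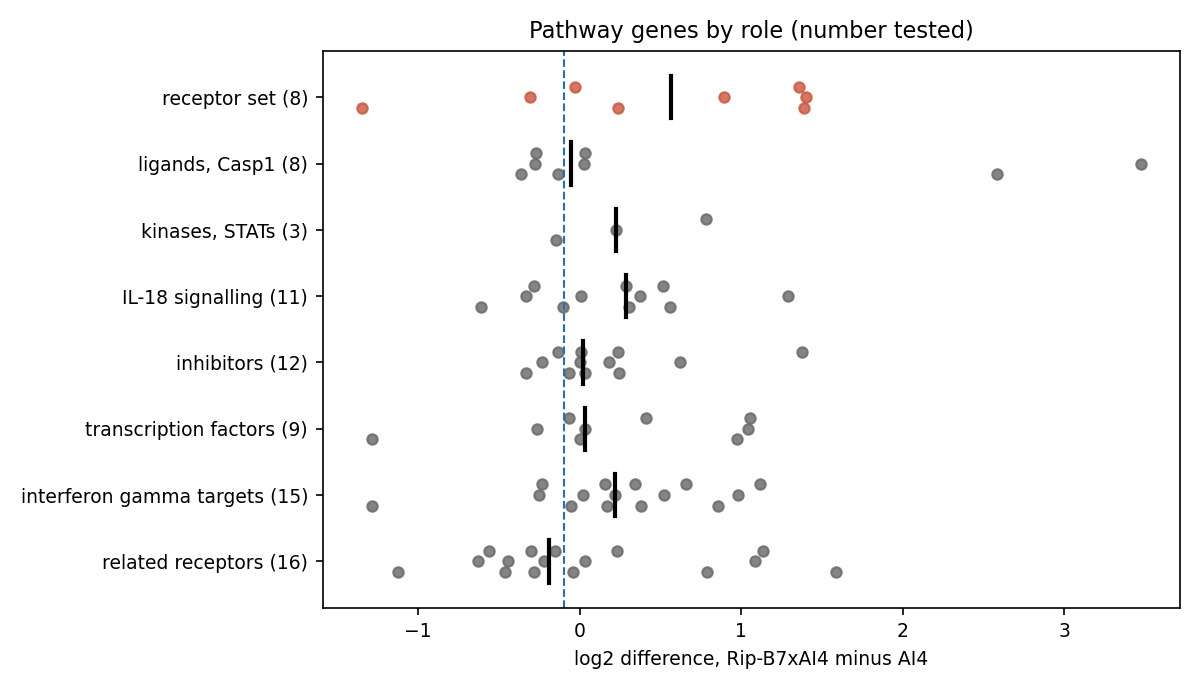
Log2 difference, Rip-B7xAI4 minus AI4, of each tested gene, by role; each point is a gene, black bars are medians and the dashed line is the median of all genes tested, -0.097. Points are shifted up and down only for visibility. The receptor set spans -1.35 to 1.40, and the 2 points beyond 2 in the ligand row are Casp1 (2.59) and Ifng (3.47).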

How the data were processed

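Total RNA of sorted cells was hybridised to 6 single-colour arrays, 3 per group, with groups taken from the sample titles. The log2 values deposited by the authors, 1 for each probe on each array, had been made and normalized with Affymetrix Expression Console, per the submitters' processing notes. Its version and summarisation method are not given in the sources of this work, nor is the scale, which was read as log2 from the range of 2.29 to 13.61. Nothing further was normalized. Of 28325 probes, 21760 had a single symbol in the platform annotation, 1621 several and 4944 none. For genes with several probes the brightest on average over the 6 arrays was used. The 30% of genes with the lowest mean (under 5.47) were not tested, which left 13950.

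limma 3.58.1 in R 4.3.3 was fitted over these genes with 1 term for the group (lmFit and eBayes, two-sided, Benjamini-Hochberg over all genes tested). The fit was also tried on simulated data with independent noise and differences larger than those of any member. That trial does not cover differences of the members' size. Intervals are limma's, at 95%. The number of arrays limits the precision, and p-values measure the spread between these samples. Named were all members, up to 4 genes of each pathway list by smallest p with 11 fixed pathway genes, and the 2 nearest named genes of each member. Genes with a negative difference were also named for the interleukin-18 signalling and interferon gamma target lists. Members and lists were chosen with earlier results of these data known. Tried as alternatives were the replicate number as a block, arrays left out, quantile normalization, median centring, other filters, other probe rules, eBayes with trend and robust, and array weights.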

Additional observations from a re-analysis of the deposited data

How the results depend on the processing

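None of the 8 members passed the limit under any of 16 alternatives. Il12rb2, Il18r1, Il18rap and Ifngr2 kept their direction in all 16, with lowest and highest differences of 0.38 and 1.89 (Il12rb2), 0.89 and 1.73 (Il18r1), 1.09 and 1.89 (Il18rap) and -1.81 and -0.97 (Ifngr2). Their groups also stayed apart after quantile normalization and median centring. Only under these alternatives could separated groups come to overlap or turn their direction. The other alternatives therefore do not test the direction of these genes. Jak2 kept its direction (0.46 to 1.41). With 1 array left out Il12rb1 lay between -0.16 and 0.15, Stat4 between -0.034 and 0.53 and Ifngr1 between -0.50 and -0.042, and the difference Il18rap minus Il18r1 between -0.34 and 0.30. The sign of Il12rb1 turned under median centring (0.038) and array weights (0.013), that of Stat4 after quantile normalization (-0.0090). Without Rip-B7xAI4 replicates 1 and 3 it turned for Il12rb1 (0.065), Ifngr1 (0.022) and Il18rap minus Il18r1 (-0.090). Members with all Rip-B7xAI4 arrays below all AI4 arrays numbered 1 to 2 with 1 array left out, the second being Ifngr1 without AI4 replicate 1. The cause was not tested.

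Over all genes tested 1 gene passed, against 0 to 22 with 1 array left out, 0 without Rip-B7xAI4 replicates 1 and 3, and 35 higher and 3 lower with array weights, where 2 ligand genes passed. With the replicate number as a block 0 genes passed, 993 had an unadjusted limma p under 0.05, and the Ifngr2 difference was -1.35 ± 0.39 (SE). The SE was smaller with the block for Il12rb2 (0.33 against 0.49), Il18r1, Il18rap and Ifngr2, and larger for Il12rb1, Ifngr1, Stat4 and Jak2. Deviations of same-numbered arrays correlated at 0.060, 0.00050 and -0.18, and those of differently numbered arrays between -0.19 and 0.19. With 3 arrays per group this cannot exclude a pairing, and none is stated. Pseudocounts did not apply to log2 values. Signal over background is unknown, which limits dim genes such as Il18 most.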

Other observations

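All 8 members were highest, among the AI4 arrays, on AI4 replicate 3. Of the 13950 genes tested, 30.2% were highest there, and 46.2% were highest on AI4 replicate 1. After quantile normalization the 8 members were still highest on AI4 replicate 3, against 27.8% of genes tested. In this respect the receptor chains that were lower in Rip-B7xAI4 (Ifngr2) and those that were higher (Il12rb2, Il18r1, Il18rap) did not differ. AI4 replicate 3 is thus the AI4 array nearest to Rip-B7xAI4 for the interleukin-18 receptor and the farthest from it for Ifngr2.

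Several related genes stood apart on AI4 replicate 1, and were picked after their values were seen. Irf1, a transcription factor that interferon gamma induces, stood at 10.15 there and at 7.99 and 7.70 on AI4 replicates 2 and 3. On the Rip-B7xAI4 arrays Irf1 stood at 8.58, 6.72 and 6.68, and the brighter of its 2 probes is given. Il23r, the partner of Il12rb1 in the interleukin-23 receptor, stood at 7.70 there and at 4.76 to 5.35 on the other 5 arrays. Ifnar2, a chain of the type I interferon receptor, stood at 5.10 there and at 8.04 to 9.33 on the other 5. Il6st, the shared chain of the interleukin-6 family, stood at 7.58 there and at 8.25 to 10.22 elsewhere.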
